A study of Mus musculus with 30 samples.

Results

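The small structural RNAs described here act as RNA rather than as templates for protein. Small nucleolar RNAs (snoRNAs) guide chemical marks onto ribosomal RNA, those with boxes C and D directing ribose methylation and those with boxes H and ACA directing pseudouridylation. Small Cajal body RNAs (scaRNAs) do the same on the small nuclear RNAs (snRNAs) of the spliceosome. 7SK RNA holds the elongation kinase complex P-TEFb inactive together with HEXIM proteins, signal recognition particle RNA directs secretory proteins such as preproinsulin to the endoplasmic reticulum, and Terc is the template of telomerase. Most of these mature RNAs carry no poly(A) tail, and most snoRNAs of mammals are cut out of introns of host genes.

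Genes were taken by symbol (Snora, Snord, Scarna, Rnu or Rn7s at the start, plus Rmrp, Rpph1 and Terc), which gave 180 gene IDs among the 54232 in each library. The 60 with at least 100 counts summed over the 30 libraries were kept. They comprise 34 box C/D snoRNAs, 12 box H/ACA snoRNAs, 5 scaRNAs, 4 snRNAs, 3 RNAs named 7S other than 7SK, 7SK itself (Rn7sk) and Terc. The genes were thus chosen by their measured total counts, which are given as a description only. Just inside the threshold were Snord23 with 115, Snord55 with 117 and Snord123 with 120 counts in total, and just outside it were Snora2b with 96, Snord66 with 83 and Snora34 with 82. Of the 120 IDs left out, 95 had no count in any library and 25 had between 1 and 99. Among them were Rmrp and Rpph1, the RNAs of the RNA-cleaving enzymes RNase MRP and RNase P: both Rmrp IDs stood at 0 and Rpph1 had 8 counts. Exons of another gene on the same strand overlapped 86 of the 120 IDs left out and 4 of the 60 kept, Rn7s1, Rn7s2, Rn7s6 and Scarna13. How reads in such overlaps were counted is not stated, so low counts there need not mean little RNA.

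The libraries came from pancreatic islets of male wild-type C57BL/6N mice. CdCl2 at 1 mM was given in vivo for 6 weeks (4 libraries) or 18 weeks (5 libraries), and isolated islets were cultured with 0.5 uM CdCl2 for 96 h (5 libraries). The vehicle groups held 5, 6 and 5 libraries at 6 weeks, 18 weeks and 96 h. The labels do not say that libraries of a group came from separate animals or cultures, so the p-values speak of the spread from library to library, part or all of which may be technical. Libraries held 9092759 to 58366797 counts, and 3 at 18 weeks were shallower than the rest of their groups: cadmium replicate 5 had 21573301, and vehicle replicates 4 and 6 had 14751249 and 9092759. Marker genes of beta cells, such as insulin, made up 20.6 to 23.7% of counts in cadmium and 22.5 to 24.5% in vehicle libraries at 6 weeks. At 18 weeks they made up 12.5 to 20.5% with cadmium and 13.5 to 19.0% with vehicle, and in culture 12.8 to 16.2% with cadmium and 15.6 to 16.3% with vehicle. In islet RNA, fewer cells of a type and less RNA per cell cannot be told apart.

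The sequence of 7SK is shown because it was the most abundant RNA of the set, and those of Rnu12, Snord17, Scarna13 and Terc because they were far higher at 18 weeks. Snord104 stood near the top in every group, and Snord65 and Snord37 ran the other way. Snora17 was higher in culture than at 6 weeks, though its mean level in vehicle libraries was highest at 18 weeks. All were taken from the GENCODE vM21 transcripts on GRCm38, each 5′ to 3′ on the strand given. Capitals mark GATC in 7SK, the motif its HEXIM partner recognises, and AATTTTTGA in Rnu12, a snRNA of the minor spliceosome, as the kind of uridine-rich stretch bound by Sm proteins. In the box C/D RNAs they mark TGATG of box C and CTGA of box D. In the H/ACA RNAs they mark the ACA box, and in the first 60 bases of Terc the telomere template CTAACCCT.
Rn7sk (chr9:78175303-78175633, minus strand, bases 1 to 300 of 331): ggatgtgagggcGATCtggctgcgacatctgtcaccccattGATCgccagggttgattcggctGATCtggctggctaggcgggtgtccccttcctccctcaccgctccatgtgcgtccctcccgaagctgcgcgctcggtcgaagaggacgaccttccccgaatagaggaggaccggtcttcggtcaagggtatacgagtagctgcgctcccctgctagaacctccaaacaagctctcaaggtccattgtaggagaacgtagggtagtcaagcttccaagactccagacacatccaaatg
Rnu12 (chr15:83149644-83149794, plus strand, 151 bases): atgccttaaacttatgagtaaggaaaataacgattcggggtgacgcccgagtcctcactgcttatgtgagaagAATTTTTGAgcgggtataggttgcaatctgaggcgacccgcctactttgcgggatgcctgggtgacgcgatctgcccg
Snord17 (chr2:144265979-144266216, minus strand, 238 bases): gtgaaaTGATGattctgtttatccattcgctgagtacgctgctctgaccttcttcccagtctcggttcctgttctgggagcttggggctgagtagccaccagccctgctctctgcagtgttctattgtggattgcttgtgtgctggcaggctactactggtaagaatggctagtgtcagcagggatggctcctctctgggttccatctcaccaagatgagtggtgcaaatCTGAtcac
Snord104 (chr11:106500993-106501062, plus strand, 70 bases): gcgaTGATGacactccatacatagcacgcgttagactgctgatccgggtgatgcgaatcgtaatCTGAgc
Snord65 (chr11:62604515-62604586, plus strand, 72 bases): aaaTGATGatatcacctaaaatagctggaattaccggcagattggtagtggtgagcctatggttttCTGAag
Snord37 (chr10:81178950-81179013, plus strand, 64 bases): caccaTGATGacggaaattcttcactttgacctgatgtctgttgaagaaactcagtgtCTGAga
Scarna13 (chr12:105031075-105031349, minus strand, 275 bases): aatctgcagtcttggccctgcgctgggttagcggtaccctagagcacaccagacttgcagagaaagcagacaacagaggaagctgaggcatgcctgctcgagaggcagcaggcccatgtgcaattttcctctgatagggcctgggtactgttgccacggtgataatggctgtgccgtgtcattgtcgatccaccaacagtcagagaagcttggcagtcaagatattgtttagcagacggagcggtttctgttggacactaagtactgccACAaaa
Snora17 (chr2:26639190-26639321, minus strand, 132 bases): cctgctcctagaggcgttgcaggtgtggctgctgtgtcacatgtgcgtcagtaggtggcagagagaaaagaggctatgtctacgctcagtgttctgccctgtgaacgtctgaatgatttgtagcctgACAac
Terc (chr3:96414437-96414859, minus strand, bases 1 to 60 of 423): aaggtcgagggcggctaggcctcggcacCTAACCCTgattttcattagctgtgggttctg

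Boxes of the class were found in most but not all snoRNA members. TGATG within the first 20 bases and CTGA within the last 12 bases of the RNA strand were both present in 24 of the 34 C/D members (70.6%) and in 0 of the 12 H/ACA members, against 334 of 1507 annotated snoRNA genes (22.2%). ACA within the last 6 bases was present in 11 of the 12 H/ACA members, in 4 of the 34 C/D members (11.8%) and in 45.8% of all annotated snoRNA genes. Snord17 is unusually long for a C/D RNA, with its boxes at the ends of 238 bases. Rn7s1 and Rn7s2, both signal recognition particle RNA genes of chromosome 12, are identical over all 300 bases, and Rn7s6 matches each at 86.7% of positions. Reads of Rn7s1 and Rn7s2 cannot be told apart by sequence, and 7SK, signal recognition particle RNA and snRNA genes have many near-identical copies in the mouse genome, so the split of counts between copies is uncertain.

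Islets at 18 weeks held 7SK, and the sum of the other genes, at a level that no other library approached. 7SK alone took 1.91 to 4.97% of all counts in the 11 libraries at 18 weeks, and 0.0001 to 0.000478% in the 19 others. The shares in the 5 cadmium libraries at 18 weeks were 4.97, 4.40, 3.36, 3.01 and 2.51%. In the 6 vehicle libraries at 18 weeks the lowest was 1.91%, the median 3.16% and the highest 4.59%. The other 59 genes together gave 388 to 965 CPM (here counts scaled to the library's own total) at 18 weeks and 8.04 to 17.0 elsewhere, and neither measure overlapped between the settings. The sum rests mostly on Scarna2, Rn7s6, Scarna13, Snord17 and Scarna6, with 26501 to 132662 counts each over the 30 libraries. Snord104 came next with 4184. Single genes did not all follow the sum, as given below.

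**Figure D1:**
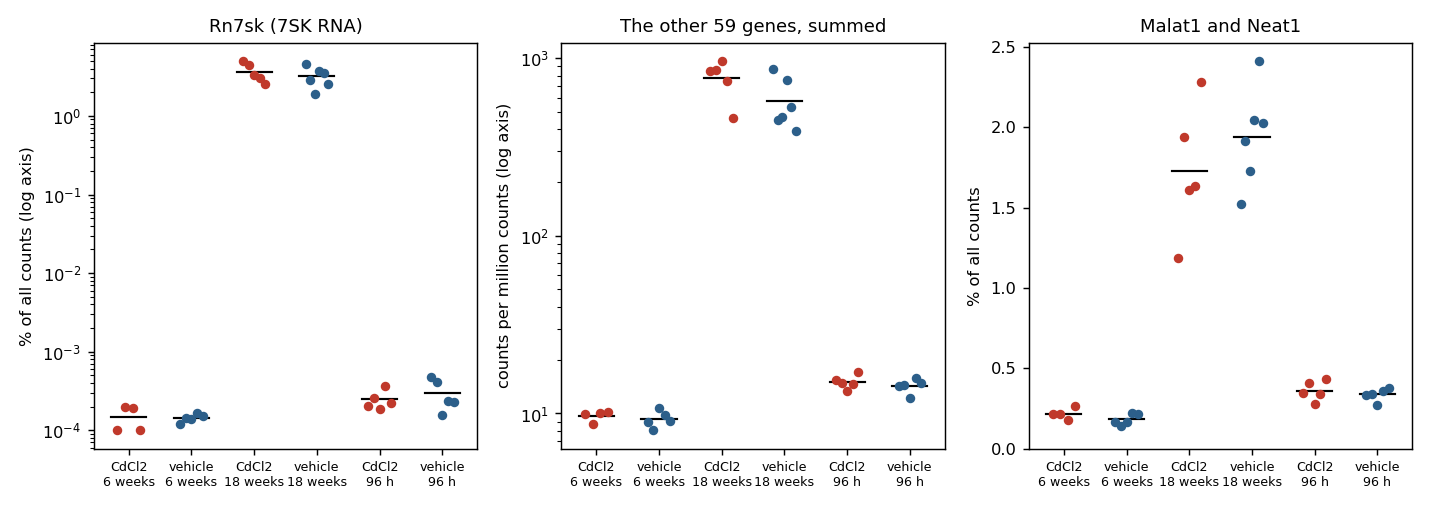
Share of all counts of Rn7sk (left, percent, log axis), summed CPM of the other 59 genes (middle, log axis) and share of Malat1 and Neat1 (right, percent, linear axis). Points are libraries, red for CdCl2 and blue for vehicle, and bars are group means; all 11 libraries at 18 weeks lie above all 19 others in each panel.

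Other RNAs stood apart in the same libraries. Replication-dependent histone genes, whose messages also lack a poly(A) tail, took 0.0882 to 0.152% of counts at 18 weeks and 0.0211 to 0.0284% elsewhere. The long nuclear RNAs Malat1 and Neat1 took 1.19 to 2.41% at 18 weeks and 0.141 to 0.436% elsewhere. Ribosomal RNA genes took 0.000266 to 0.000576% of counts at 18 weeks, 6.85e-05 to 0.000176% at 6 weeks and 0.000249 to 0.000527% in culture. Of their 182 IDs, 116 had no count in any library, and mitochondrial protein genes were at 0 in all 30 libraries. The part of the counting rules in these low values was not tested, so they are not read as amounts of RNA. The labels give one form of library preparation, the Illumina protocol, with no selection step named. Age, time on treatment, handling and any difference in preparation or run between the 6 and 18 week sets cannot be told apart, and every comparison across settings given here carries that limit.

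The plain order of levels changed with the setting. Per kilobase of gene length, Rn7sk led the vehicle libraries at 18 weeks with 96387 CPM per kilobase, CPM from here on being scaled to library sizes adjusted by the TMM method, followed by Scarna2 with 637, Snord17 with 266, Scarna13 with 265, Rn7s6 with 248 and Scarna6 with 185. The neighbours from Snord17 to Scarna6 in that order differed by less than their spread between libraries. In vehicle libraries at 6 weeks Snord104 led with 19.2 CPM per kilobase, ahead of Snora31 with 8.94, Snord49a with 7.03, Snord65 with 5.98 and Snord37 with 4.83, and Rn7sk came seventh with 4.65. In vehicle libraries after 96 h of culture Snord104 again led with 27.9 CPM per kilobase, ahead of Rnu73b with 10.2, Snord53 with 9.69, Snord91a with 8.32 and Rn7sk with 8.23. In culture every library's value of Snord104 lay above every value of Rnu73b per kilobase, while at 6 weeks the ranges of Snord104 and Snora31 met.

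**Figure D2:**
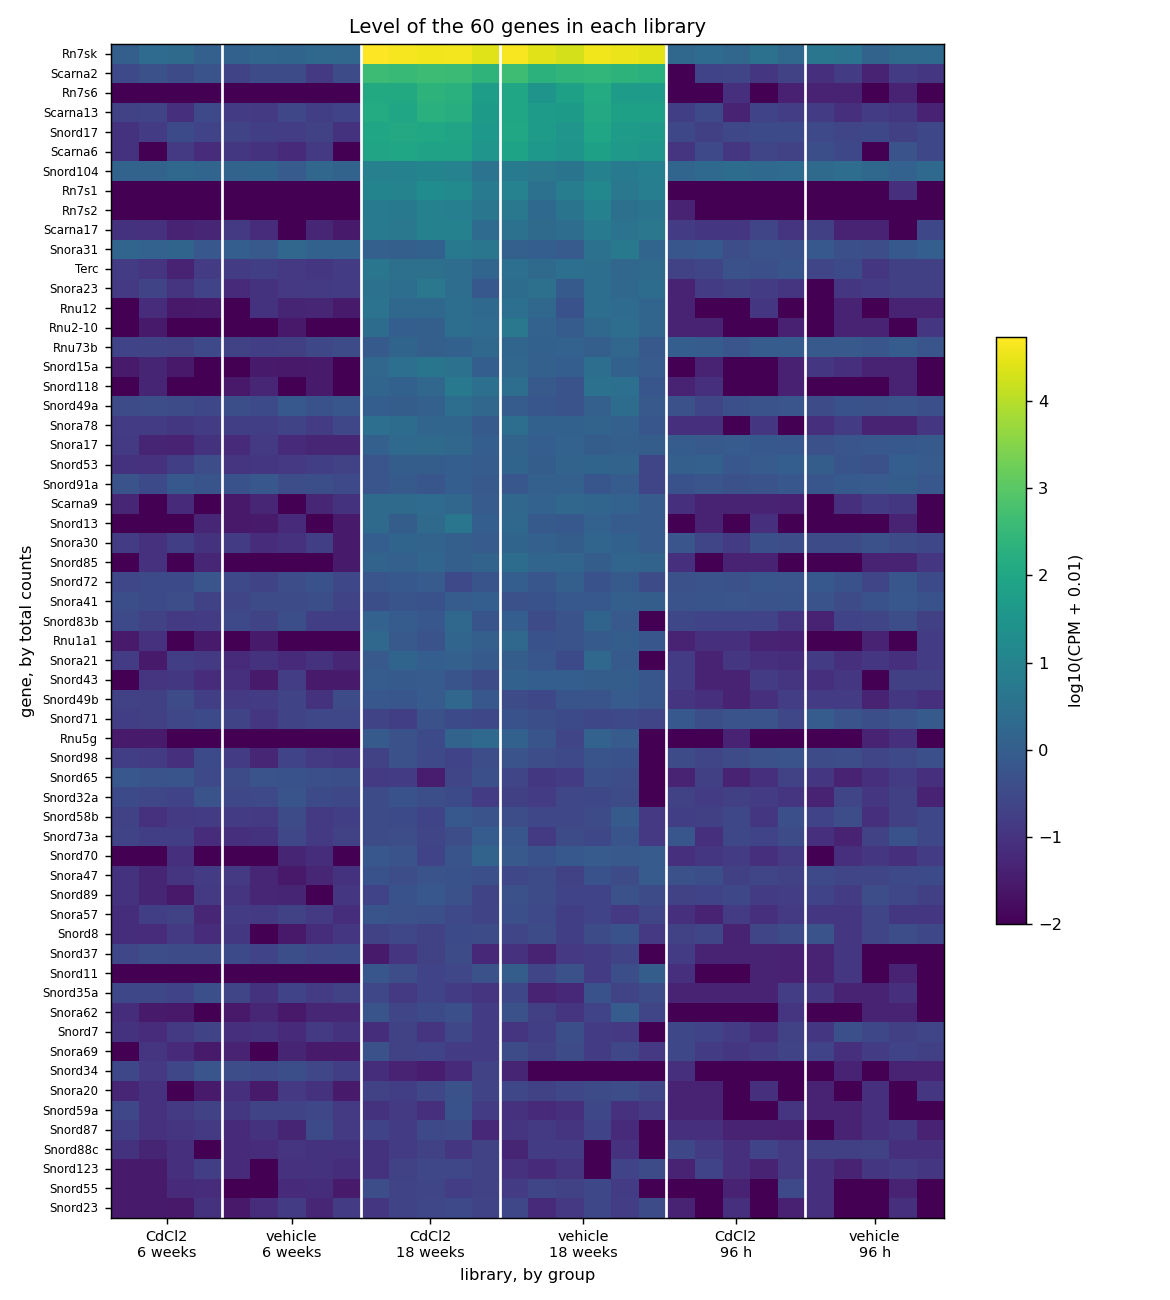
Level of each of the 60 genes (rows, ordered by total counts) in each of the 30 libraries (columns, by group), as log10 of CPM plus 0.01 (colour scale). The block of 11 libraries at 18 weeks stands out from Rn7sk down to the Scarna and 7S genes, while Snord34, Snord37 and Snord65 are mostly darker (lower) there than at 6 weeks.

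Vehicle islets at 18 weeks were compared with vehicle islets at 6 weeks to describe how the set differs between the 2 in vivo settings. By pooled CPM, 54 of the 60 genes were higher at 18 weeks and 6 lower, 28 of them more than 10-fold higher and 13 more than 100-fold. The median over the 60 was 6.98-fold. The threshold on total counts favours genes that are high in a large group of libraries: 49 of the 60 reached 100 counts in the 18 week libraries alone and 30 in the 19 others alone. Among those 30, 26 were higher at 18 weeks and 4 lower per total counts, and of the 25 IDs that missed the threshold with 1 to 99 counts 20 were higher and 4 lower. In edgeR's quasi-likelihood test 48 of the 60 passed the filter on low counts and 45 passed an adjusted p of 0.05, 43 higher and 2 lower, beside 71.8% of all 20551 genes tested (35.9% higher and 35.9% lower). Since the rule and the filter both lean on the higher group, these counts are a description. Of the 48, 36 passed the filter through the 18 week libraries alone and 2, Snord65 and Snord32a, through the 6 week libraries alone. For these the filter itself favours a difference, so pooled ratios with 95% counting intervals are given in place of adjusted p-values. Another 3, among them Snord37, passed only through both groups together, and 7 passed in both. Markers of acinar cells, the enzyme-secreting cells around islets, made up 0.209 to 1.47% of counts in vehicle libraries at 18 weeks and 2.23 to 4.10% at 6 weeks, and endothelial markers 0.0353 to 0.0458% and 0.0410 to 0.0513% in the same order. The shares of acinar and beta cell markers in vehicle libraries did not overlap between 18 and 6 weeks, those of endothelial markers did, and their part in the results was not tested.

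7SK rose at 18 weeks by 14.30 ± 0.32 on the log2 scale in vehicle islets (SE, edgeR adjusted p = 5.16e-14). Its pooled level was 20826-fold higher, from 6974501 counts at 18 weeks and 375 at 6 weeks. The 6 vehicle libraries at 18 weeks held 19248 to 45993 CPM of Rn7sk with a median of 30718, against 1.23, 1.54, 1.5, 1.78 and 1.65 CPM in the 5 at 6 weeks. The groups lie far apart, and the spread within each is small beside the gap.

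Of the 7 genes of the 7SK particle and P-TEFb, 4 rose and 3 fell in vehicle islets at 18 against 6 weeks, beside 35.9% of all genes higher and 35.9% lower. That background stands beside each count of a protein list for 18 against 6 weeks given here, and nothing particular to a list is read from its count. Larp7, which binds the end of 7SK, rose by 0.55 ± 0.09, while Mepce, which caps it, fell by 0.48 ± 0.07 (log2, SE, edgeR). Hexim1, an inhibitor, fell by 0.39 ± 0.07, while Hexim2, the other HEXIM gene of the list, rose. Cdk9, the kinase, fell by 0.40 ± 0.11 and its cyclins Ccnt1 and Ccnt2 rose by 0.27 ± 0.05 and 0.28 ± 0.08.

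None of the 3 genes named Rn7s followed by a digit had a count at 6 weeks, in either treatment. Rn7s6 had 14196 counts in vehicle islets at 18 weeks and 0 in those at 6 weeks, at least 5299-fold higher against a floor of 3 counts over the group. Rn7s1 had 1451 against 0, at least 542-fold higher, and Rn7s2 had 819 against 0, at least 306-fold higher. The lowest library at 18 weeks still held 31.0 CPM of Rn7s6, with a median of 59.3 and a highest of 135. Of the 7 tested protein genes of the particle, 4 rose and 2 fell at 18 weeks. Srp54a, the signal peptide binder, rose by 2.08 ± 0.12 and Srp9, of the Alu domain, by 1.30 ± 0.11, while the scaffold Srp68 fell by 0.51 ± 0.12 (log2, SE, edgeR).

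All 5 scaRNAs were more than 10-fold higher in vehicle islets at 18 than at 6 weeks. Scarna2, which has no annotated host gene, held 187 to 425 CPM at 18 weeks with a median of 238, against 0.224, 0.338, 0.354, 0.129 and 0.342 CPM at 6 weeks. Its pooled level was 981-fold higher, with a 95% counting interval of 774 to 1264. Scarna6 was 638-fold higher (408 to 1060.1) and Scarna13 367-fold higher (274 to 504) on the same measure. The groups did not overlap for any of these 3 scaRNAs. Scarna17 was 60.3-fold and Scarna9 38.9-fold higher by pooled CPM.

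The snRNAs and Terc followed the same direction. Rnu12 had 424 counts in vehicle islets at 18 weeks and 9 at 6 weeks, a ratio of pooled CPM of 52.8 with a 95% counting interval of 27.5 to 116. Rnu2-10, a snRNA gene of the major spliceosome, had 511 and 1 counts, a ratio of 572 with a 95% counting interval of 102 to 22644. Terc had 504 and 34 counts, a ratio of 16.6 (11.7 to 24.2), with 1.63 to 2.82 CPM and a median of 2.37 at 18 weeks, against 0.150, 0.169, 0.118, 0.107 and 0.150 CPM at 6 weeks. Tert, the catalytic protein of telomerase, fell by 0.55 ± 0.10 at 18 weeks, Wrap53, its Cajal body carrier, fell by 0.38 ± 0.08 and Tep1 fell by 1.03 ± 0.07, 3 of the 4 telomerase protein genes. Of the 19 Sm and snRNP protein genes, 7 rose and 9 fell. Snrpg rose by 2.11 ± 0.12 and Snrpd1 by 1.43 ± 0.09, and Snrpn fell by 1.27 ± 0.08 (log2, SE, edgeR).

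Among snoRNAs the size of the difference ranged widely. The 12 H/ACA RNAs were all higher by pooled CPM in vehicle islets at 18 than at 6 weeks, with a median of 9.28-fold, and of the 34 C/D RNAs 28 were higher and 6 lower, with a median of 2.65-fold. Snord17 was 379-fold higher by pooled CPM (95% counting interval 279 to 529), with 31.6 to 108 CPM at 18 weeks and a median of 53.3, against 0.224, 0.169, 0.157, 0.193 and 0.0855 CPM at 6 weeks. Snord118, which is needed for processing of large-subunit ribosomal RNA in vertebrates, was 109-fold higher and Snord13, a guide of ribosomal RNA acetylation in human cells, 44.6-fold. Snord104, which passed the filter in both groups, rose by 2.15 ± 0.23 (log2, SE, edgeR adjusted p = 8.71e-07), with 3.97 to 9.04 CPM at 18 weeks against 1.38, 1.44, 0.866, 1.65 and 1.39 CPM at 6 weeks.

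A few C/D RNAs ran the other way. Snord37 held a mean of 1.60 CPM per kilobase in vehicle islets at 18 weeks and 4.83 at 6 weeks. It met the CPM rule of the filter in 1 vehicle library at 18 weeks and 4 at 6 weeks. The filter thus leaned on the 6 week group, and the fitted log2 fold change of -1.47 ± 0.41 (SE, edgeR) is a description only. Snord65 had 49 counts at 18 weeks and 105 at 6 weeks, a ratio of 0.523 with a 95% counting interval of 0.364 to 0.740. Snord65 held 0 to 0.421 CPM at 18 weeks with a median of 0.194, against 0.337, 0.507, 0.472, 0.430 and 0.406 CPM at 6 weeks, and the groups overlapped. Snord65 passed the filter through the 6 week libraries alone, so its edgeR call, at a log2 fold change of -0.97 ± 0.37, is a description only. That call was lost without vehicle replicate 2 or 3 at 18 weeks (log2 fold change -0.76 and -0.80). It was also lost without vehicle replicate 2 or 3 at 6 weeks (-0.89 and -0.95) and with total-count scaling (-0.82). Snord34 had 2 counts at 18 weeks and 75 at 6 weeks, a ratio of 0.0299 with a 95% counting interval of 0.00355 to 0.112, and it did not pass the filter for the test. Its 5 values at 6 weeks, 0.374, 0.296, 0.413, 0.258 and 0.171 CPM, all lay above the highest of 0.0407 CPM at 18 weeks. Snord34, Snord32a and Snord35a lie in introns of the same host, Rpl13a, but did not all run the same way. Snord35a held a mean of 2.71 CPM per kilobase in vehicle islets at 18 weeks and 1.97 at 6 weeks. Snord32a held 2.47 and 4.16 in the same order.

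Gene length went with the difference. By pooled CPM of vehicle islets at 18 over 6 weeks, with lower bounds where the 6 week group was at 0, the 9 genes of 200 or more bases had a median of 542-fold, the 23 from 100 to under 200 bases 12.3-fold and the 28 under 100 bases 2.34-fold. All 9 and all 23 were higher at 18 weeks, and all 6 that were lower had under 100 bases. Spearman's rho of length and log2 ratio was 0.62 over the 60 genes and 0.50 over the 45 within host genes, as a description over genes that share libraries. Of the 9 long genes, 6 had no host. For culture against 6 weeks the medians were 1.5-fold, 1.59-fold and 1.46-fold for the long, middle and short classes, over 56 genes with a fold.

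**Figure D3:**
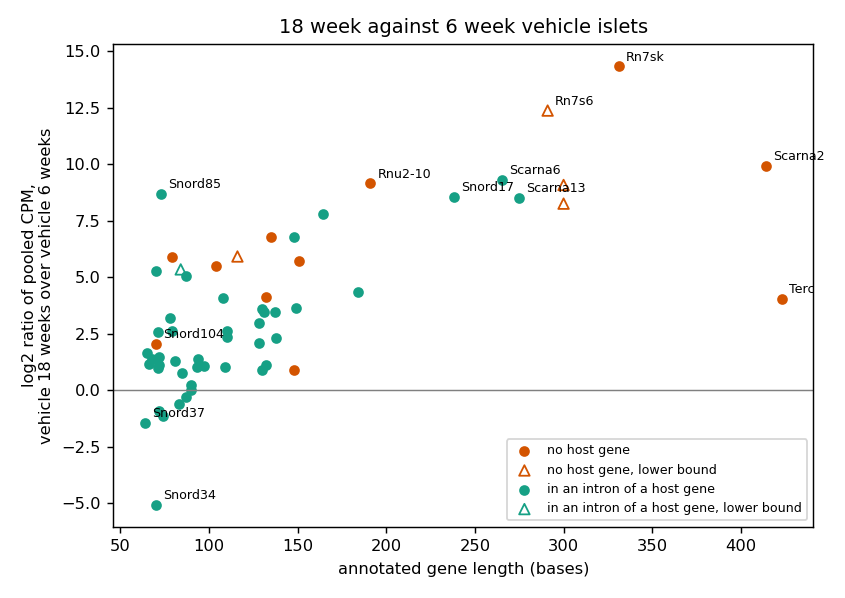
Log2 ratio of pooled CPM in vehicle islets, 18 over 6 weeks, against annotated gene length in bases for each of the 60 genes. Orange marks genes with no host gene and green those in an intron of one, open triangles are lower bounds, and the genes of 200 or more bases all lie above 4 on the log2 axis.

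Host genes mostly differed less than their small RNAs. Of the 60 genes, 45 lie wholly within introns of 38 hosts and 15 have no host. The median ratio of vehicle islets at 18 over 6 weeks was 4.27-fold for the 45 and 60.5-fold for the 15. Of the 38 hosts, 22 rose and 6 fell, with a median log2 fold change of 0.38, beside 71.8% of all genes called (35.9% higher and 35.9% lower) and a median of 0.00. Snord17 was 379-fold higher by pooled CPM while its host Snx5, a sorting nexin, held 140 ± 19.8 CPM at 18 weeks and 131 ± 5.30 CPM at 6 weeks (SD, n = 6 and 5), with a log2 fold change of 0.06 ± 0.08 that did not pass (edgeR adjusted p = 0.512). Atg16l1, the autophagy gene that hosts Scarna6, rose by 0.34 ± 0.05 and Snhg10, the host of Scarna13, by 1.17 ± 0.17. The C/D RNA Snord85 had 372 counts at 18 weeks and 1 at 6 weeks, a ratio of 417 with a 95% counting interval of 74.3 to 16497.

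Some hosts differed more than the RNA inside them. Rpsa rose by 7.25 ± 0.12 and Rpl17 by 6.89 ± 0.11 (log2, SE, edgeR), while Snora62 in Rpsa was 12.3-fold higher and Snord58b in Rpl17 2.22-fold higher by pooled CPM. Tpt1 rose by 4.51 ± 0.12 while Snora31 in its intron had a log2 fold change of 0.86 ± 0.44 that did not pass (adjusted p = 0.0913). For these hosts the 6 week libraries stood apart. Mean vehicle levels at 6 weeks, 18 weeks and in culture were 2.80, 438 and 472 CPM for Rpsa. In the same order they were 2.16, 263 and 255 CPM for Rpl17 and 16.9, 396 and 707 CPM for Tpt1. Ribosomal protein genes and Tpt1 have many near-identical processed copies, so their counts depend on how reads with several matches were treated, which is not given in the sources used here. Rpl13a, host of 3 C/D RNAs, had a log2 fold change of 0.01 ± 0.09 and Eef2, host of Snord37, fell by 0.38 ± 0.10. Of the 44 hosted RNAs with both values, 31 had the sign of their host. Since 39 of the 45 hosted RNAs were higher and more hosts rose than fell, many shared signs would arise without any link. Hosts with several RNAs also count more than once, so no link of RNA and host is read from this count.

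**Figure D4:**
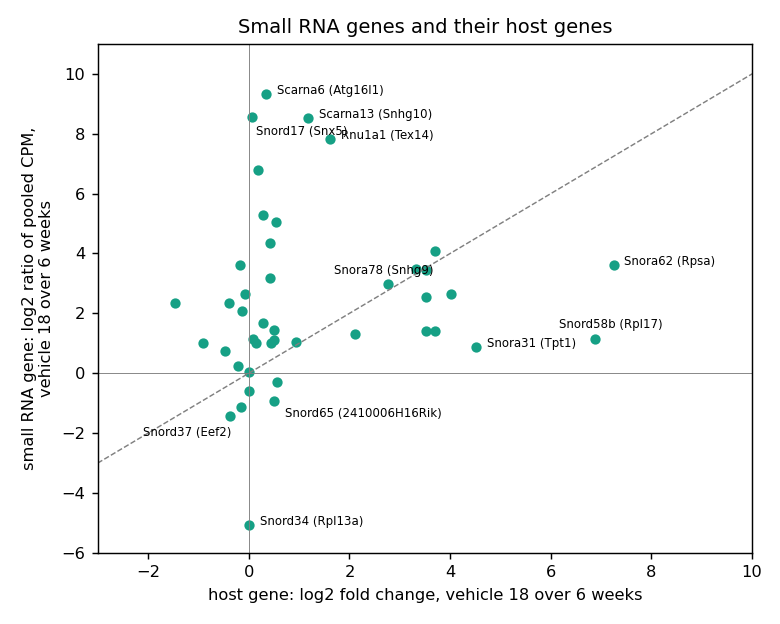
Log2 ratio of pooled CPM of 43 hosted small RNA genes (vertical) against the fitted log2 fold change of the host gene (horizontal), vehicle islets at 18 over 6 weeks; the dashed line marks equal values. Of the 44 with both values, 1 is not plotted because its host is not reported here. Snord17, Scarna6 and Scarna13 lie above 8 with hosts between 0.06 and 1.17, and the hosts Rpsa and Rpl17 lie far to the right of the line.

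Of the proteins that package box C/D RNAs, all 4 genes tested rose in vehicle islets at 18 against 6 weeks, beside 35.9% of all genes higher, led by Snu13 at 3.33 ± 0.10 and the methyltransferase Fbl at 2.76 ± 0.18, with Nop56 at 0.58 ± 0.07 and Nop58 at 0.55 ± 0.09 (log2, SE, edgeR). The same 4 rose in culture against 6 weeks, beside 33% of all genes higher, Snu13 by 3.41 ± 0.05. Both comparisons use the same 6 week vehicle libraries, so the second is not a separate observation. In culture against 18 weeks 2 of the 4 were called higher, beside 30.6% of all genes, with a median log2 fold change of 0.14 over the 4. How reads with several matches were treated is not given, and its part in these and the other protein gene values here was not tested. Of the 6 H/ACA proteins, Nop10 rose by 0.80 ± 0.09 and the assembly factor Naf1 fell by 0.67 ± 0.11, and the pseudouridine synthase Dkc1 had a log2 fold change of -0.09 ± 0.08. Of 19 genes for snRNA transcription and end processing 4 rose and 12 fell, with Ints3 of the Integrator complex lower by a log2 fold change of -0.73 ± 0.07. Over all lists, 49 of 127 tested genes rose and 45 fell with a median log2 fold change of 0.05, beside 0.00 over all genes.

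Vehicle islets after 96 h of culture were compared with both in vivo vehicle groups. Against 6 weeks, 35 of the 60 genes were higher and 21 lower by pooled CPM and 4 had too few counts for a fold. Of the 16 that passed the filter 14 were called, 11 higher and 3 lower, beside 67.8% of 17605 genes tested (33% higher and 34.8% lower). The count was 8 or 9 without any 1 of the 5 vehicle libraries at 6 weeks, where 10 or 11 passed the filter. Of the 16, 9 passed through the cultured libraries alone and 1, Snord65, through the 6 week libraries alone, so pooled ratios are given for these. Acinar markers made up 0.00127 to 0.00662% of counts and endothelial markers 0.00342 to 0.00613% in cultured vehicle libraries, far below the in vivo ranges above, and their part in the results was not tested. Snora17 held 0.467, 0.599, 0.654, 0.698 and 0.772 CPM in culture, against 0.0561, 0.127, 0.059, 0.043 and 0.0427 CPM at 6 weeks. Its pooled level was 9.77-fold higher (95% counting interval 5.70 to 17.8) and the groups did not overlap. By the same measure Snord53 was 5.58-fold, Snora47 4.24-fold, Rnu73b 3.11-fold and Snord71 2.92-fold higher. Rn7sk, which passed the filter in both groups, rose by 0.85 ± 0.27 (log2, SE, edgeR adjusted p = 0.0124), with 4.42, 3.66, 1.41, 2.09 and 2.03 CPM in culture, and these values overlapped those at 6 weeks.

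Snord65 had 12 counts in culture and 105 at 6 weeks, a ratio of 0.199 with a 95% counting interval of 0.0994 to 0.362. Snord32a fell in culture by 1.47 ± 0.43 and Snora31 by 0.83 ± 0.28 (log2, SE, edgeR). Snord32a met the CPM rule of the filter in 1 cultured vehicle library and 4 at 6 weeks, so there the filter leaned on the 6 week group. The call of Snora31 was lost without vehicle replicate 3 at 6 weeks (-0.68) and with total-count scaling (-0.62). Snord65 held 0.108, 0.0352, 0.0689, 0.147 and 0.0702 CPM in culture, each below the lowest of 0.337 CPM at 6 weeks. Snord65, Snord49a and Snord49b share the host 2410006H16Rik, yet Snord49a had a log2 fold change of -0.15 ± 0.25 in culture (adjusted p = 0.609). At 18 against 6 weeks Snord49a rose by 1.02 ± 0.38 (log2, SE, edgeR) and Snord49b was 2.75-fold higher by pooled CPM (1.94 to 3.96).

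Against 18 weeks, 56 of the 60 genes were lower in culture by pooled CPM and 3 higher, 23 of them more than 10-fold lower. Of the 35 tested, 32 were called, 31 lower and 1 higher, beside 67.2% of 18449 genes (36.6% lower and 30.6% higher). Of the 35, 23 passed the filter through the 18 week libraries alone, among them Scarna2, whose pooled level was 2743-fold lower in culture. Rn7sk fell by 13.55 ± 0.41 (log2, SE, edgeR adjusted p = 3.02e-12). Snord71, the 1 called higher, passed through the cultured libraries alone, so the filter itself favours that call, which is a description only. Its mean level was 7.44 CPM per kilobase in cultured vehicle libraries and 3.97 in vehicle libraries at 18 weeks. The fitted log2 fold change was 0.78 ± 0.27, and the call was lost without vehicle replicate 1 or 5 of the culture (0.64 and 0.69). The 2 culture comparisons share the cultured vehicle libraries, and each shares its in vivo group with the comparison of 18 with 6 weeks.

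Cadmium was compared with vehicle within each setting, and the labels give no difference in age or preparation between the groups compared. After 6 weeks in vivo 0 of the 18 genes that passed the filter were called, beside 0% of 18080 genes, and DESeq2 called 0; 2 had an unadjusted edgeR p under 0.05. The smallest unadjusted p-values were those of Snord35a and Snord49a. Snord35a held 0.277, 0.286, 0.223 and 0.423 CPM in cadmium islets, against 0.243, 0.0845, 0.216, 0.150 and 0.192 CPM in vehicle islets, a log2 fold change of 0.74 ± 0.32 (SE, edgeR adjusted p = 0.919). Snord49a held 0.362, 0.368, 0.334 and 0.275 CPM against 0.393, 0.317, 0.708, 0.494 and 0.620 CPM of Snord49a in vehicle islets, a log2 fold change of -0.60 ± 0.27 (adjusted p = 0.919). Rn7sk had a log2 fold change of 0.06 with a 95% interval of -0.46 to 0.59, so a 2-fold change in either direction lies outside it.

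After 18 weeks in vivo none of the set was called for cadmium. Of the 52 that passed the filter 0 were called, beside 0.359% of 20911 genes tested (0.344% higher and 0.0143% lower), and 9 had an unadjusted p under 0.05, all with the higher level in cadmium islets. Over all 20911 genes 3804 had an unadjusted p under 0.05, in either direction. DESeq2 called 0 of the set, 8 of which had an unadjusted p under 0.05. The median log2 fold change was 0.35 over the 52 and 0.00 over all genes. By pooled CPM 40 of the 60 were higher and 20 lower in cadmium islets, 14 of the 15 without a host and 26 of the 45 with one. All 5 scaRNAs and all 3 RNAs named 7S other than 7SK were among the higher ones. The same counts of direction over all genes are not given, and the 60 genes share libraries. Nothing particular to the set is therefore read from these counts or from the direction of the 9.

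Rn7s6 had the smallest p. It held 123, 123, 225, 181 and 56.5 CPM in the 5 cadmium libraries, against 31.0 to 135 CPM with a median of 59.3 in the 6 vehicle libraries, and the groups overlapped. Its log2 fold change was 0.98 ± 0.36 (SE, edgeR adjusted p = 0.195). Scarna13 had a log2 fold change of 0.78 ± 0.30 (adjusted p = 0.213), with 139, 92.6, 182, 160 and 47.1 CPM in cadmium islets against 46.0 to 115 CPM in vehicle islets. Snord13 at 0.98 ± 0.39, Snord15a at 0.87 ± 0.35 and Scarna17 at 0.81 ± 0.33 followed. The fit over all 30 libraries, which pools the spread of 6 groups, called Rn7s6 and Scarna13 with adjusted p of 0.0325 and 0.0227. That fit also called many more genes over all than the fit of the groups compared, as given below. These calls are thus not read as particular to the set.

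7SK was not called at 18 weeks, with a log2 fold change of 0.32 and a 95% interval of -0.19 to 0.84 (edgeR). On the lower side Snord43 at -0.51 ± 0.25 (adjusted p = 0.298) had the smallest p. Cadmium replicate 5, the shallowest of its group, was the lowest of the 5 cadmium libraries for Rn7sk, Rn7s6, Scarna13, Snord17 and Scarna6. The 15 listed markers of acinar cells all had counts and together made up 1.35 to 16.1% of counts in cadmium libraries at 18 weeks and 0.209 to 1.47% in vehicle libraries, and their part in these values was not tested. Malat1 and Neat1 ran from 1.19 to 2.28% in cadmium and from 1.52 to 2.41% in vehicle libraries at 18 weeks.

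In culture 0 of the 13 genes tested were called, beside 0.00597% of 16743 genes, and DESeq2 called 0; Snord91a alone had an unadjusted edgeR p under 0.05. Snord91a held 0.478, 0.575, 0.457, 0.531 and 0.647 CPM with cadmium, against 0.611, 0.810, 0.826, 0.955 and 0.667 CPM with vehicle, a log2 fold change of -0.52 ± 0.20 (SE, edgeR adjusted p = 0.888). Rn7sk had a log2 fold change of -0.31 with a 95% interval of -0.90 to 0.28. Terc had 55 counts with cadmium and 29 with vehicle and did not pass the filter.

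**Figure D5:**
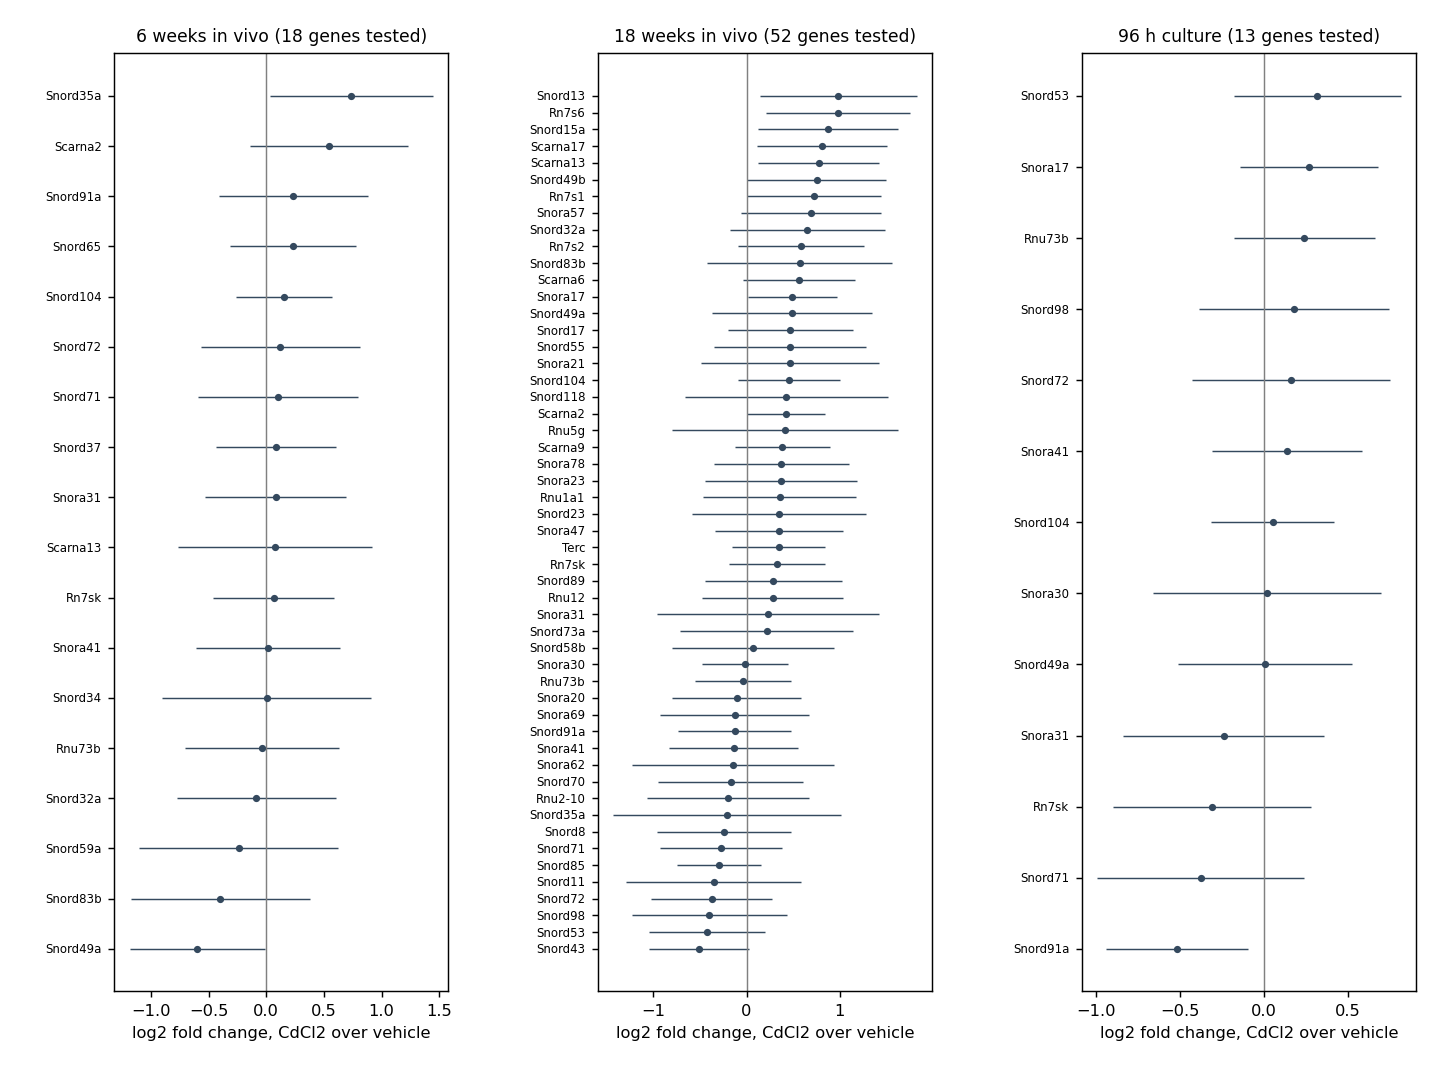
Fitted log2 fold change of cadmium over vehicle with 95% interval for each gene that passed the filter, at 6 weeks (18 genes), 18 weeks (52 genes) and in 96 h culture (13 genes), highest at the top. No gene passed an adjusted p of 0.05 in any panel; at 18 weeks 9 intervals lie wholly above 0.

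The proteins of these particles were also not called for cadmium. Of the 126 listed genes tested at 6 weeks, 129 at 18 weeks and 126 in culture, edgeR called 0 in each. Over all genes it called 0%, 0.359% and 0.00597% in that order of settings. Of the listed genes, 5, 28 and 4 had an unadjusted p under 0.05 in the same order. The smallest adjusted p at 18 weeks was 0.142, for Snapc3 of the snRNA promoter complex at -0.33 ± 0.10. Snhg9, the host of Snora78, had a log2 fold change of 1.04 ± 0.34 (SE, edgeR adjusted p = 0.159) at 18 weeks. Of the 38 hosts edgeR called 0 at 18 weeks, and 16 had an unadjusted p under 0.05, 13 of them higher in cadmium islets. Unadjusted p-values under 0.05 were common over all genes at 18 weeks, as counted above, and nothing particular to hosts or lists is read from these counts. The difference between the cadmium effects at 18 and 6 weeks was called for 1.68% of all 22721 genes tested. Among the 129 listed genes tested there it was called for 1, Snapc3, at -0.50 ± 0.12 (edgeR adjusted p = 0.0407). Among the 38 hosts it was called for Rpl3, which hosts Snord83b and Snord43, at 0.56 ± 0.13 (adjusted p = 0.0340).

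Whether the cadmium difference itself differed between settings was tested in 1 fit of all 30 libraries, in which 58 of the 60 genes were tested. For 18 minus 6 weeks edgeR and DESeq2 called 0 and 3 had an unadjusted edgeR p under 0.05, beside 1.68% of 22721 genes called (0.898% higher and 0.783% lower). Nearest were Snord34 at 2.39 ± 0.98 (log2, SE, edgeR adjusted p = 0.160), Snord85 at -2.50 ± 1.06 and Snord49a at 1.07 ± 0.49 (adjusted p = 0.202). Without vehicle replicate 5 at 18 weeks Snord49a was called, at 1.57 (edgeR adjusted p = 0.0409). For culture minus 6 weeks both tools called 0, beside 0% of genes, with Terc nearest at 1.23 ± 0.54. For culture minus 18 weeks both tools called 0, beside 0.0176% of genes (0.0044% higher and 0.0132% lower), with Snord15a nearest at -2.50 ± 1.11 (adjusted p = 0.333).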

How the data were processed

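Islet RNA was sequenced in 30 libraries, and the authors deposited raw read counts per Ensembl gene for each library, with no normalization. Per the submitters' processing notes, cutadapt 1.13, STAR, HTSeq 0.6.1p1, DESeq2 and mm10 were used. The sources used here do not give the annotation release, strand setting, read length or treatment of reads with several matches. Gene IDs were matched to symbols (99.72% of 54232), and positions, hosts and sequences come from GENCODE vM21 on GRCm38.

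A host is another gene that contains the whole small RNA gene on the same strand. The values of 1 host are not reported here. Each comparison was fitted on its own 2 groups over all genes with edgeR 4.0.16 (R 4.3.3), once low genes were dropped by filterByExpr (at least 10 counts by its rule, total at least 15) and libraries scaled by TMM, with quasi-likelihood tests and Benjamini-Hochberg adjustment over all genes tested, and called at an adjusted p of 0.05. Differences between cadmium effects used all 30 libraries. Fold changes by pooled CPM used TMM sizes of all libraries, with a floor of 3 counts over a group. Which group carried a gene past the filter was found by applying the CPM rule of filterByExpr to each group alone. Intervals of counts are 95% and cover counting error only. The procedure was tested on simulated data.

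Alternatives were RLE and total-count scaling, DESeq2 1.42.0, no filter, a fit of all libraries, a replicate block, leaving out each library and leaving out the 3 shallow ones. Genes named were, by rule, Rn7sk, Rmrp, Rpph1, Terc and the Rn7s genes, the 10 with the most counts, the 5 of smallest p in each direction per comparison (3 for differences between cadmium effects), their hosts, up to 3 called genes in each direction per pathway list (the 1 of smallest p where none was called) and the 3 on each side of the threshold. Other genes named, such as Scarna9, Snord118, Rnu12, Rnu2-10, Snora62 and Snord58b, were chosen after their values were seen. The members, lists and tests were chosen with earlier results of these data known.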

Additional observations from a re-analysis of the deposited data

How the results depend on the processing

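The 95 results named for single genes were recomputed under 1914 alternatives, of which 1881 kept the direction and the side of the threshold, 14 lost the call, 3 gained it and 16 turned the direction, all of the last among values that were never called. With the replicate block Rnu73b had a log2 fold change of 0.17 at 6 weeks, and with total-count scaling Snord49a had 0.059 in culture against 6 weeks. Leaving out 1 library gave -0.18 to 0.17 for Rnu73b, -0.37 to 0.15 for Snord32a, -0.11 to 0.22 for Rn7sk and -0.19 to 0.36 for Scarna13 for cadmium at 6 weeks. It gave -0.061 to 0.16 for Snord104 for cadmium in culture and -0.27 to 0.011 for Snord49a in culture against 6 weeks. The cause of these turns was not tested.

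For cadmium at 18 weeks the fit of all 30 libraries called 2 of the set where the fit of its own groups called 0, and its count over all genes, given below, was also larger. For culture against 6 weeks DESeq2 called 23 and a fit with no filter 25 where 14 of the 16 past the filter were called (the cause was not tested), and leaving out 1 library gave 8 to 18, lowest without vehicle replicate 1, 3 or 5 at 6 weeks. For the cadmium effect at 18 minus 6 weeks leaving out 1 library gave 0 to 1. Total-count scaling moved the median of all genes to 0.13 for 18 against 6 weeks, 0.21 for culture against 6 weeks and -0.13 for cadmium at 18 weeks, where the median of the set was then 0.20.

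Over all genes, edgeR called 75 for cadmium at 18 weeks, DESeq2 765, the fit of all libraries 2496, the fit without the 3 shallow libraries 0, and fits without 1 library 0 to 318. DESeq2 called 11 genes for cadmium at 6 weeks where edgeR called 0, and 1385 and 196 where edgeR called 382 and 4 for the cadmium effect at 18 minus 6 weeks and in culture minus 18 weeks.

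Same-numbered libraries did not deviate together in every pair (correlations of -0.13 to 0.26 over all comparisons), and not every library correlated best with its own number. For cadmium against vehicle in culture every such correlation was positive, at 0.0153 to 0.137. The numbers were not taken to pair libraries, but pairing in culture is not excluded. With the replicate block 43 of the set were called for 18 against 6 weeks where 45 were, and over all genes 223 for cadmium in culture where 1 was and 1 for cadmium at 18 weeks where 75 were. It changed no other count of the set. A threshold of 50 total counts would have kept 68 genes and one of 500 would have kept 30. Most of the 60 genes outside the 18 week libraries had under 100 counts per group, which limits what could be called there.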

Other observations

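Snora31, an H/ACA RNA in an intron of Tpt1, split the libraries at 18 weeks across both treatments. Cadmium replicates 4 and 5 held 5.08 and 4.37 CPM of Snora31 and vehicle replicates 4 and 5 held 3.22 and 5.20 CPM, while the 3 other cadmium libraries held 1.10 to 1.25 CPM and the 4 other vehicle libraries 0.843 to 1.59 CPM. This was noticed after the values were seen, and no group label marks these libraries. Snora31 held 0.655 to 1.53 CPM in cadmium and 0.739 to 1.61 CPM in vehicle libraries at 6 weeks. The host Tpt1 ran from 439 to 805 CPM over the cadmium and from 315 to 437 CPM over the vehicle libraries at 18 weeks.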
